A study of Homo sapiens with 33 samples.

Results

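RT112 R3 cells in long-term culture with PD173074 were compared, gene by gene, with parental RT112 cells given the same drug for 24 h. Of the 33 arrays in the series, 6 make up the comparison, 3 of RT112 R3 +PD and 3 of RT112 parental +PD, and no gene was chosen by its values, so all 22411 genes measured by a probe set of their own were tested. RT112 is an established bladder cancer cell line that carries an FGFR3-TACC3 gene fusion beside wild-type FGFR3, and PD173074 is an inhibitor of the FGF receptor kinases. RT112 R3 is a resistant derivative that was selected and kept in 1 µM PD173074. It carries an activating HRAS mutation that the parental line lacks, and the study describes it as a mixture of mutant and wild-type cells, so it is not a clone and each value is a mean over both. For parental cells the labels give the 24 h of treatment, and the dose used for the arrays is not given in the sources used here. Both groups were therefore in drug, and the line, the HRAS mutation, the length of exposure and possibly the dose differ between them and cannot be told apart. A further 4 sets of 3 arrays serve for reference. They are RT112 parental -PD (untreated), RT112 R3 -PD (R3 after culture without drug), and RT112 R1 +PD and RT112 R2 +PD, derivatives kept in 1 µM and 2 µM PD173074 in which sequencing found no such HRAS mutation. The question put by the comparison is what distinguishes cells that grow in the inhibitor from cells that have just met it.

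FGFR3 is a receptor tyrosine kinase at the cell surface that, once activated, passes its signal through adaptors to RAS proteins and on through the RAF, MEK and ERK kinases, and in parallel through PI3K and AKT. Active ERK switches on a small set of genes, many of which encode its own inhibitors (DUSP and SPRED proteins), along with MYC and cyclin D1, which drive cells from G1 into S phase by freeing E2F transcription factors from RB family proteins. An activating mutation of HRAS acts below the receptor. In the bladder, FGFR3 is expressed in the urothelium, whose surface cells are marked by uroplakins, and FGFR3-driven bladder cancers are mostly of the luminal kind.

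All values are used as deposited, as log2 signals, on which 1 unit is a 2-fold change in signal. They reach 19.51 among the genes tested, high for signals of this kind, and the scale could not be checked against raw intensities here, so the size of the folds rests on the deposited scale. Each difference is R3 +PD minus parental +PD unless another is named. Rises and falls are likewise relative to treated parental cells, and may start from a level that differed from that of untreated cells. The 3 parental +PD arrays, below called the acute arrays, agreed closely with one another (Pearson r across genes 0.995, SD of the log2 difference between pairs 0.246 to 0.271). Among the R3 +PD arrays, replicates 1 and 2 agreed as well (SD 0.264), and replicate 3 stood apart from replicate 1 (SD 0.458) and replicate 2 (SD 0.326). In 2027 of the 2489 genes that passed the test below (81.4%), replicate 3 was the R3 +PD array nearest to the acute mean, against 287 genes for replicate 1 and 175 for replicate 2. Counts are therefore also given without it. Because it was the array nearest the acute mean, leaving it out raises differences and calls by construction, and such counts are no independent support. The cells carried epithelial identity in all 6 arrays, with EPCAM, an epithelial adhesion molecule, between 12.68 and 13.37 and the keratins KRT8 and KRT18 at 15.54 or above, while PTPRC, the pan-leukocyte antigen, lay between 4.29 and 4.41, below the array medians of 4.86 to 5.05. None of 13 immune cell markers passed the test, 1 of 10 fibroblast markers fell (S100A4, a calcium-binding protein that epithelial cells can also make) and 1 of 10 endothelial markers fell (ESAM). The mean log2 level over the fibroblast list ran from 5.70 to 5.80 in the acute arrays and from 5.34 to 5.63 in R3 +PD, and its highest member was LUM, at 11.94 and 10.55. Over the endothelial list it was 4.88 to 5.01 against 4.73 to 4.83, and over the immune list 4.68 to 4.81 against 4.60 to 4.66. The part that these small shifts or the standing of replicate 3 play in the results was not tested.

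Of 22411 genes, 1199 were higher in R3 +PD than in the acute arrays (5.35% of those tested) and 1290 were lower (5.76%), by limma at an adjusted p under 0.01. In all 2489 of them the 3 and 3 arrays did not overlap. With 3 arrays in each group that nearly follows from passing the test, so it adds no support, and the share over all genes is not given here. Of the higher genes 712, and of the lower genes 627, differed by at least 1 log2 unit. Both reference comparisons share arrays with this one, so their counts are given side by side only. Acute treatment set 2555 genes higher (11.4%) and 2951 lower (13.2%) than in untreated parental cells, and R3 +PD differed from the untreated cells in 202 higher (0.901%) and 237 lower genes (1.06%). The number of calls moved widely with single arrays. Without R3 +PD replicate 3 it rose to 2262 higher and 2011 lower. It fell to 1 higher and 3 lower without parental +PD replicate 1 or without R3 +PD replicate 2, to 62 and 65 without parental +PD replicate 2, to 51 and 39 without parental +PD replicate 3, and to 225 and 225 without R3 +PD replicate 1, each fit then resting on 2 arrays in one group. The counts by gene list given below fall with them, to at most 3 members of any list in the fits with the fewest calls. At an adjusted p under 0.05, the 2 fits with the fewest calls gave 1656 higher and 2018 lower genes without parental +PD replicate 1, and 1341 and 1472 without R3 +PD replicate 2. Of the 104 named genes past the test, 4 kept their call without parental +PD replicate 1, 13 without replicate 2 and 14 without replicate 3, and 36, 3 and 101 without R3 +PD replicates 1, 2 and 3. BTBD16, CEACAM6 and SSX1 kept it in all 6 of these fits. No direction reversed among the 104, and the highest adjusted p that any of them reached without 1 array was 0.0455. Nothing in the labels says that replicates were separate cultures, so p-values measure the spread between arrays, which may be technical.

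FGFR3 itself was much lower in R3 +PD. Its log2 signals were 10.92, 10.68 and 10.99 in the acute arrays and 7.05, 7.26 and 7.92 in R3 +PD. No array of one group came within 2 units of the other, and the difference was -3.45 (SE 0.23, adjusted p = 0.00152). In these bulk samples, fewer cells that express a gene and less RNA per cell cannot be told apart. In untreated cells it was 9.87, 10.42 and 10.61, and in R3 -PD 8.58, 9.19 and 8.44. Of the other FGF receptors, FGFR2 was 7.41, 7.43 and 7.31 in the acute arrays against 7.18, 6.86 and 6.83 in R3 +PD, a difference of -0.43 that did not pass the test (adjusted p = 0.0361), and FGFR1 differed by 0.10 (adjusted p = 0.379) near the array medians. Of the 26 FGF receptors and ligands and their partners measured, 1 rose (3.85%) and 2 fell (7.69%), near the 5.35% and 5.76% over all genes. FGFBP1, a secreted carrier that releases FGFs from the matrix, rose from 5.52 ± 0.48 to 8.58 ± 0.75 (SD, n = 3 each), with no overlap between the arrays (difference 3.06, SE 0.41, adjusted p = 0.00504). FLRT2, a membrane protein of a family that binds FGF receptors, fell by 1.57 (SE 0.14, adjusted p = 0.00229). The median difference over this list was -0.01, against -0.003 over all genes.

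**Figure D1:**
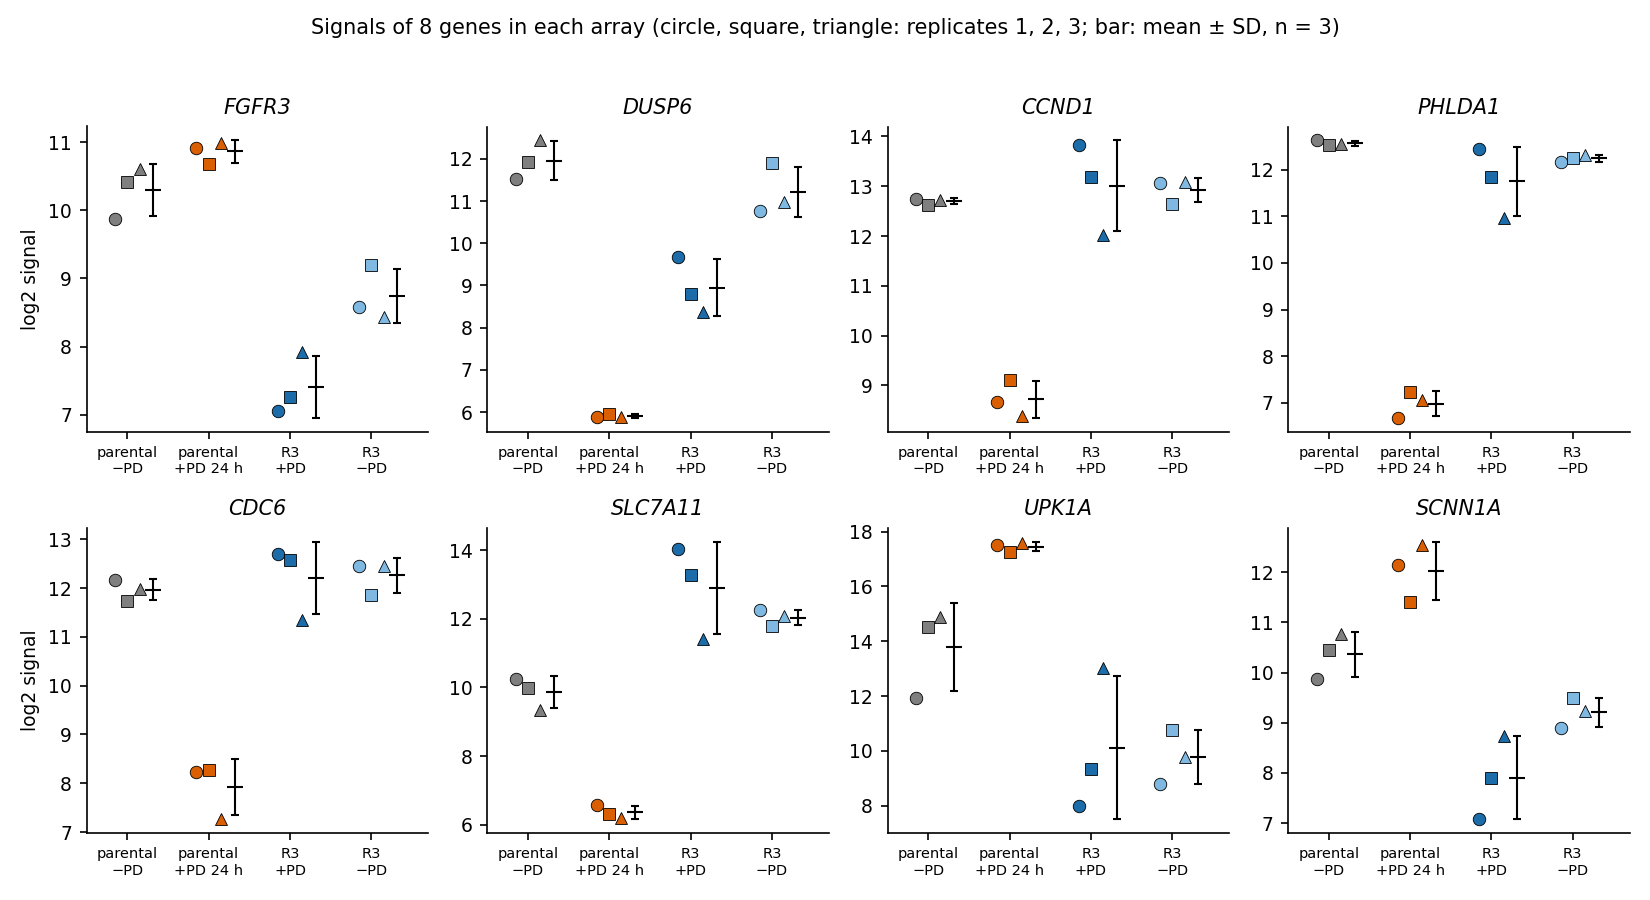
Log2 signal (y axis) of 8 genes in each array of parental -PD, parental +PD (24 h), R3 +PD and R3 -PD (x axis), with symbols for replicates 1 to 3 and the mean ± SD (n = 3) beside them. FGFR3 is lowest in R3 +PD, whereas DUSP6, CCND1, PHLDA1, CDC6 and SLC7A11 are lowest in the acute arrays, and UPK1A spreads from 8.01 to 13.02 in R3 +PD.

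Genes switched on by active ERK were in part higher in R3 +PD. Of 35 measured members of the ERK output list, 10 rose (28.6%) and 1 fell (2.86%), against 5.35% and 5.76% over all genes. The other 24 did not pass, and the median difference was 0.72. PHLDA1, a nuclear protein induced by growth factors, was 6.68, 7.22 and 7.05 in the acute arrays and 12.44, 11.84 and 10.97 in R3 +PD. The groups stood more than 3 units apart, and the difference of 4.77 (SE 0.37, adjusted p = 0.00198) was the largest of the list. CCND1, which encodes cyclin D1, rose from 8.67, 9.11 and 8.38 to 13.82, 13.19 and 12.03 (difference 4.29, SE 0.46, adjusted p = 0.00302), and MYC, the growth-promoting transcription factor, from 7.46, 8.15 and 6.89 to 11.42, 10.72 and 9.71 (difference 3.12, SE 0.50, adjusted p = 0.00738). In each of these genes R3 +PD replicate 3 was the lowest R3 array. DUSP6, the phosphatase that inactivates ERK, was tightly grouped in the acute arrays at 5.88, 5.96 and 5.89 and reached 9.68, 8.80 and 8.37 in R3 +PD (difference 3.04, SE 0.31, adjusted p = 0.00283). It stayed below the untreated arrays, which stood at 11.52, 11.92 and 12.44, by 3.01 (adjusted p = 0.00927), whereas CCND1 differed from untreated cells by 0.31 (adjusted p = 0.688) and PHLDA1 by -0.82 (adjusted p = 0.191). The other members that rose were the receptor EPHA2 (1.95), the ERK pathway inhibitors SPRED1 (1.79), SPRED2 (0.99) and DUSP4 (1.41), and the transcription factors ETV4 (1.65) and EGR1 (0.94). ETV5 is an ETS factor that the study places downstream of mutant FGFR3 in urothelial tumour cells. It was 4.93, 4.96 and 5.02 against 5.98, 5.92 and 5.18, and did not pass (difference 0.72, adjusted p = 0.0538). JUNB, an AP-1 subunit, fell by 1.04 (adjusted p = 0.0083). Without R3 +PD replicate 3, 18 members rose and 2 fell, and in the leave-one-out fit with the fewest calls none rose.

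Most components of the RAS to ERK pathway did not pass the test (28 of 38). Compared with untreated parental cells, none of them passed in R3 +PD. Of 38 measured, 1 rose (2.63%) and 9 fell (23.7%), against 5.35% and 5.76% over all genes. The median was -0.01, and the difference was above 0 in 19. SOS2, an exchange factor that loads RAS with GTP, was 12.54, 12.33 and 12.72 in the acute arrays and 9.93, 10.12 and 10.97 in R3 +PD (difference -2.19, SE 0.28, adjusted p = 0.0043). Its relative SOS1 fell by 0.85. RASSF5 and RALGDS, effectors that bind active RAS, fell by 2.17 and 1.33, and the RAS family member RRAS fell from 11.52, 12.22 and 11.91 to 10.51, 10.15 and 10.49 (difference -1.50, SE 0.20, adjusted p = 0.00466). In untreated cells RRAS was 9.24, 9.74 and 10.16 and SOS2 was 10.72, 11.02 and 11.18, below every acute array. RGL2, CNKSR1, GAB2 and SHOC2, which act as RAS effector, scaffold or adaptor, fell by 0.50 to 1.00. The member that rose was PTPN11, the phosphatase SHP2 that relays receptor signals to RAS (0.99). HRAS, the mutated gene, was 6.48, 6.45 and 6.44 in the acute arrays and 6.80, 6.78 and 6.60 in R3 +PD. Those ranges did not overlap, and the difference of 0.27 did not pass the test (adjusted p = 0.0527). A level on these arrays does not tell the mutant from the wild-type transcript.

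Among ERBB receptors and ligands, 2 of 16 rose (12.5%) and 1 fell (6.25%), against 5.35% and 5.76% over all genes. ERBB3, a receptor of the EGFR family with a weak kinase of its own, was 11.28, 11.18 and 11.88 in the acute arrays and 7.81, 8.38 and 9.55 in R3 +PD (difference -2.87, SE 0.45, adjusted p = 0.00709). EPGN, which encodes the EGFR ligand epigen, rose from 5.01, 4.65 and 4.87 to 7.70, 8.75 and 7.43 (difference 3.12, SE 0.34, adjusted p = 0.00315), and ERRFI1, a feedback inhibitor of EGFR, rose by 2.74 (SE 0.19, adjusted p = 0.00158). EGFR overlapped between the groups, at 9.01 ± 0.34 against 9.59 ± 0.69 (SD, n = 3 each), with a difference of 0.58 (adjusted p = 0.324). Of 46 other receptor tyrosine kinases, EPHA1 fell (-0.67, adjusted p = 0.00344) and none rose. That is 2.17% of the list lower, against 5.76% over all genes. MET, the receptor for hepatocyte growth factor, was 10.18, 10.32 and 10.14 against 12.37, 11.86 and 11.06, a difference of 1.55 that missed the threshold (adjusted p = 0.0155). IGF1R and INSR, the receptors for insulin-like growth factors and insulin, differed by -0.50 (adjusted p = 0.0122) and -1.07 (adjusted p = 0.0158). IGFBP3, an IGF-binding protein, differed by -1.57 (adjusted p = 0.0133).

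Genes that FOXO factors switch on when PI3K signalling is low, together with PI3K feedback genes, were lower. Of 28 measured, 6 fell (21.4%) and 1 rose (3.57%), against 5.76% and 5.35% over all genes. The other 21 did not pass, and the median was -0.49. PIK3IP1, an inhibitor of PI3K, was 8.62, 8.31 and 8.76 in the acute arrays and 6.29, 6.19 and 7.23 in R3 +PD (difference -1.99, SE 0.29, adjusted p = 0.00599). The pseudokinase TRIB2 fell from 8.59, 8.26 and 9.14 to 6.53, 6.61 and 6.94 (difference -1.97, SE 0.24, adjusted p = 0.00377), and FOXO4 itself fell by 1.77 (SE 0.30, adjusted p = 0.0089). CCNG2, PHLPP1 and DEPTOR, which restrain the cell cycle, AKT and mTOR, fell by 1.28, 0.98 and 0.65. INPP4B, a phosphoinositide phosphatase, rose by 1.80 (SE 0.28, adjusted p = 0.007). Leaving out R3 +PD replicate 3, 11 members fell and 1 rose.

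DNA replication genes gave the most uniform group. Of 62 measured, 57 rose and none fell, against 5.35% of all genes, and the median difference was 2.06. CDC6, which loads the MCM helicase onto replication origins, was 8.24, 8.28 and 7.27 in the acute arrays and 12.69, 12.58 and 11.35 in R3 +PD (difference 4.28, SE 0.44, adjusted p = 0.00282). MCM10, which helps start replication forks, rose from 7.18, 7.75 and 6.93 to 11.68, 11.60 and 10.31 (difference 3.91, SE 0.41, adjusted p = 0.00293). The lowest R3 array stood more than 2 units above the highest acute array in both. GINS2, a subunit of the replicative helicase, and POLA2, a subunit of the polymerase that primes synthesis, both rose, GINS2 by 3.41 (SE 0.24, adjusted p = 0.00168), POLA2 by 3.37 (SE 0.30, adjusted p = 0.00226). The helicase subunit MCM6 rose from 7.27, 7.41 and 6.85 to 10.45, 10.62 and 10.29 (difference 3.28, SE 0.17, adjusted p = 0.000924), and in the untreated arrays it stood at 10.50, 10.25 and 10.53. The remaining members that rose did so by 0.64 (SLBP, which binds histone mRNA) to 3.36 (CHAF1B, a histone chaperone subunit). DTL, a substrate receptor that marks licensing factors for destruction and no member of the list, rose from 7.88, 8.35 and 6.78 to 11.82, 11.94 and 11.19 (difference 3.98, SE 0.42, adjusted p = 0.00298). The list's median lay 1.93, 1.77 and 2.37 below the untreated mean in the 3 acute arrays, and at 0.12, 0.11 and -0.33 in R3 +PD. Without 1 array, the median difference ran from 1.94 to 2.25, although between 0 and 57 members then passed.

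E2F factors bind short sites in promoters of replication genes, and promoter windows of the genes that rose were searched for 2 forms of that site. The letters TTTGGCGC or TTTCCCGC, on either strand, stood in 20 of the 49 DNA replication genes that rose and had a window (40.8%), in 22 of 52 measured members (42.3%) and in 2.3% of all 27305 windows. Windows are RefSeq sequences of GRCh38.p14, each spanning a gene's annotated start. They are shown for CDC6, MCM6 and DTL as examples with large rises, 5′ to 3′ on the gene's strand, with the E2F letters in capitals. CDC6 lies at chr17:40287629-40287928 (plus strand), with 1 match that begins 8 bases after the start site. MCM6 lies at chr2:135876394-135876693 (minus strand), with 2 matches, and DTL at chr1:212035498-212035797 (plus strand), with 1 match. AP-1 (TGAGTCA), ETS (CCGGAAGT), sterol (TCACCCCAC) and CCAAT letters were also searched in the replication, mitosis, ERK output and cholesterol lists. AP-1 letters stood in 5 of 24 ERK output windows (20.8%, against 4.9% of all). For the 6 ERK output genes that rose, AP-1 and ETS letters stood in 0. For the 11 cholesterol genes that rose, sterol letters stood in 0 and CCAAT in 10 (90.9%, against 35.7% of all). A match is a description of the letters and says nothing of binding in these cells.
CDC6: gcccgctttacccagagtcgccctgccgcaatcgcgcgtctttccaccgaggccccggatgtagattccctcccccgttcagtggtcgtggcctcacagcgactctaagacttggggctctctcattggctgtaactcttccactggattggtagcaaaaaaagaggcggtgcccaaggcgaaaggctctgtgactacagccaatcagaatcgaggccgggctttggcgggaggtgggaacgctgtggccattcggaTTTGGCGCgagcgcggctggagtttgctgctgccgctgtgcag
MCM6: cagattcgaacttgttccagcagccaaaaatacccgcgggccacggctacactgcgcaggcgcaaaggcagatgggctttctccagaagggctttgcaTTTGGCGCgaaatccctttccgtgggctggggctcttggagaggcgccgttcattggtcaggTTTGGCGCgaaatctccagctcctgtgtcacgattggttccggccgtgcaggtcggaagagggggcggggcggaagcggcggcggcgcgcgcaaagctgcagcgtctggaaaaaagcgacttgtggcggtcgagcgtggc
DTL: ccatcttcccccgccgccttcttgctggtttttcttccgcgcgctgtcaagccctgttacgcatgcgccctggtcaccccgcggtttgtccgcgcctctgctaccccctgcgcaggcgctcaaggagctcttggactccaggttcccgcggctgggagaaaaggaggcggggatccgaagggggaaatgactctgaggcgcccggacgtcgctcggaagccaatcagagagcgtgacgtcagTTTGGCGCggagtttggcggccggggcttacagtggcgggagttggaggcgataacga

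Genes of mitosis rose in part. Of 76 measured, 24 rose (31.6%, against 5.35% over all genes) and none fell. The difference was above 0 in 75, at a median of 1.22. MYBL2, a transcription factor of the cell cycle, was 8.90, 8.96 and 7.83 in the acute arrays and 12.46, 12.10 and 11.43 in R3 +PD (difference 3.43, SE 0.38, adjusted p = 0.00331). MAD2L1, a spindle checkpoint protein, rose from 7.56 ± 0.52 to 10.42 ± 0.44 (SD, n = 3 each; difference 2.86, SE 0.32, adjusted p = 0.00331). CCNA2, which encodes cyclin A2, rose by 2.74 (SE 0.34, adjusted p = 0.00414), and the centromere protein gene CENPU rose by 2.73 (SE 0.17, adjusted p = 0.00152). CDK1, the kinase that starts mitosis, rose by 1.82 and PLK4, which duplicates centrioles, by 2.61. Several members with large differences did not pass, such as FOXM1, a regulator of mitotic genes (1.92, adjusted p = 0.0106), and ANLN (2.14, adjusted p = 0.0137). Leaving out R3 +PD replicate 3, 33 rose. With all RT112 arrays in 1 fit, which also takes in the spread of R1 and R2, 11 rose. Of the 3 acute arrays, replicate 3 had the lowest list median, 1.93 below the untreated mean, against 1.32 and 1.00 for replicates 1 and 2. The motif TTTGAA, named CHR and found in promoters of many mitotic genes, stood on either strand in 12 of 21 windows of the mitosis genes that rose (57.1%), in 43 of 65 measured members (66.2%) and in 15.4% of all windows. The window of MAD2L1, at chr4:120066799-120067098 (minus strand), is shown with its match in capitals.
MAD2L1: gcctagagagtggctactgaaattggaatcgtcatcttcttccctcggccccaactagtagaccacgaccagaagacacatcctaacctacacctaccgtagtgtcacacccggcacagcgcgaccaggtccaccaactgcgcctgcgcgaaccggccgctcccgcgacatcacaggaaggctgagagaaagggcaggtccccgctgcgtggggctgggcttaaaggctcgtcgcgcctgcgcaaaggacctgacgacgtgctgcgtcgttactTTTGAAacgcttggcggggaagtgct

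Of 21 genes that steer cells out of G1, 8 rose (38.1%) and 1 fell (4.76%), at a median of 0.51. The shares over all genes were 5.35% and 5.76%. Beside CCND1, the rises included CDK4, the kinase partner of cyclin D1, which went from 12.38, 12.42 and 12.06 to 14.26, 14.02 and 13.55 (difference 1.66, SE 0.20, adjusted p = 0.00381). E2F3 rose by 1.79 (SE 0.24, adjusted p = 0.00471) and CCND3 by 0.92. The 2 RB-related pocket proteins of the list went opposite ways. RBL1, the partner of repressive E2Fs in cycling cells, rose by 1.82 (SE 0.25, adjusted p = 0.00511), while RBL2, the pocket protein of resting cells, fell from 12.79, 12.62 and 12.81 to 10.11, 10.44 and 11.50 (difference -2.06, SE 0.34, adjusted p = 0.00852).

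**Figure D2:**
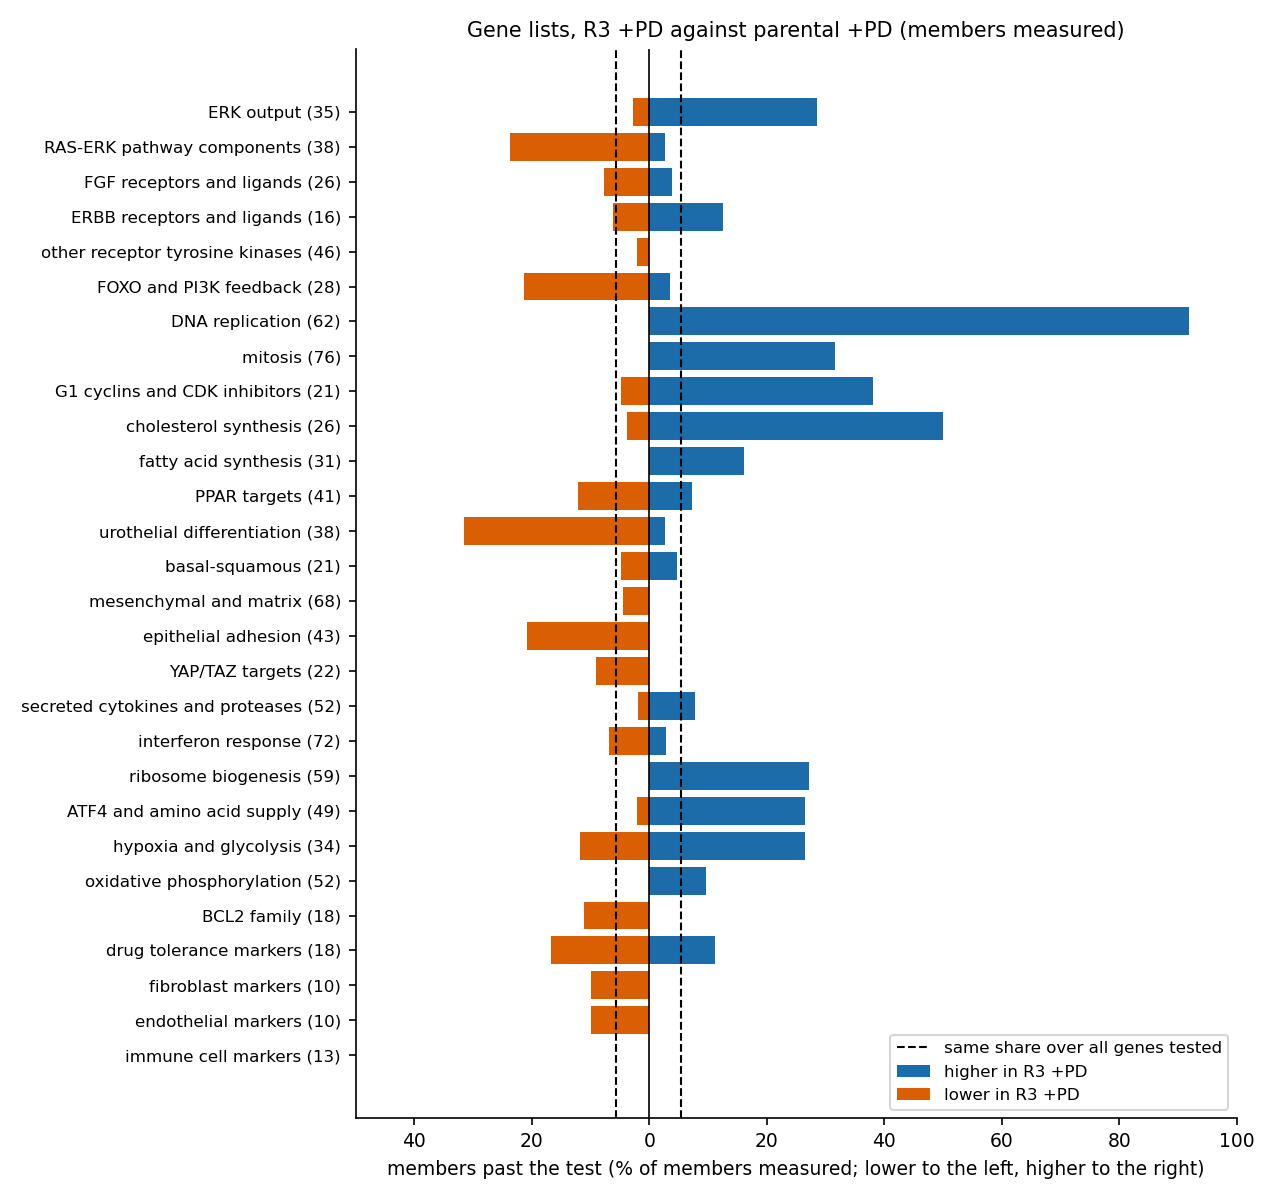
Share of each gene list's measured members past the test (x axis, %), higher in R3 +PD to the right and lower to the left, with the number measured in brackets. Dashed lines mark the shares over all genes, 5.35% higher and 5.76% lower. DNA replication reaches 91.9% higher, and urothelial differentiation 31.6% lower.

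Genes of ribosome production, amino acid supply and sterol synthesis were also higher in R3 +PD. In ribosome biogenesis 16 of 59 rose (27.1%, against 5.35% over all genes) and none fell, at a median of 1.38. DDX21, an RNA helicase of the nucleolus, was 10.50, 10.31 and 10.36 in the acute arrays and 14.50, 13.81 and 12.44 in R3 +PD (difference 3.19, SE 0.49, adjusted p = 0.00672). The rRNA methyltransferase NOP2 rose by 2.76 (adjusted p = 0.0084), PUS7, a pseudouridine synthase, by 2.72 (adjusted p = 0.0051), and UTP15, a processome subunit, by 2.56 (adjusted p = 0.00776). The number that passed moved widely, to 51 without R3 +PD replicate 3, 53 with all RT112 arrays in 1 fit, and 0 in the leave-one-out fit with the fewest. The list median of R3 +PD replicate 3 lay 0.77 below the untreated mean, where replicates 1 and 2 were at 0.43 and -0.06. The acute arrays stood at -1.61, -1.64 and -1.59.

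SLC7A11, the cystine importer xCT, showed the largest rise among genes past the test, with symbols of unofficial style left out. It was 6.56, 6.32 and 6.19 in the acute arrays and 14.03, 13.27 and 11.42 in R3 +PD, a difference of 6.55 (SE 0.63, adjusted p = 0.00256). Untreated cells lay between, at 10.26, 9.98 and 9.35, below every R3 +PD array, though that difference of 3.04 did not pass (adjusted p = 0.038). It belongs to the list of ATF4 targets and amino acid supply. Of its 49 members 13 rose (26.5%) and 1 fell (2.04%), against 5.35% and 5.76% over all genes, at a median of 0.48. SLC7A5, the carrier of large neutral amino acids, rose from 11.27, 11.90 and 10.48 to 16.12, 16.12 and 13.96 (difference 4.18, SE 0.66, adjusted p = 0.00738). MTHFD2, a mitochondrial enzyme of folate metabolism, and SLC7A1, a carrier of arginine and lysine, rose by 2.94 (adjusted p = 0.00352) and 2.87 (adjusted p = 0.00612). The tRNA synthetase genes IARS1, MARS1, GARS1, WARS1, YARS1, TARS1 and AARS1 rose by 0.94 to 2.49 and ASNS, asparagine synthetase, by 1.75. DDIT3, the stress factor CHOP, fell by 0.88.

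In cholesterol synthesis, 13 of 26 genes rose and 1 fell, at a median of 0.96. DHCR7, the last enzyme of the pathway, was 10.92, 11.26 and 10.32 in the acute arrays and 13.44, 13.49 and 13.19 in R3 +PD (difference 2.54, SE 0.24, adjusted p = 0.00247), against a mean of 13.45 in untreated cells. MSMO1 and SQLE, a sterol oxidase and squalene epoxidase, rose by 2.33 (adjusted p = 0.0024) and 2.11 (adjusted p = 0.00351), and ACAT2, which makes acetoacetyl-CoA, by 1.88 (adjusted p = 0.00332). INSIG2, which holds back the sterol regulator SREBP, fell by 1.20. Fatty acid synthesis showed 5 rises among 31 members (16.1%, against 5.35% over all genes). ELOVL6 and ELOVL5, which lengthen fatty acids, rose by 2.15 (adjusted p = 0.00213) and 1.81 (adjusted p = 0.00833), and FASN, fatty acid synthase, from 8.62, 8.54 and 8.32 to 10.41, 10.36 and 9.76 (difference 1.68, SE 0.19, adjusted p = 0.00338). SCD, the desaturase, rose by 1.63 (adjusted p = 0.00589), and in it replicate 3 was the highest R3 array. FASN still differed from untreated cells by -1.17 (adjusted p = 0.0325).

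Lists of energy metabolism are read against 5.35% higher and 5.76% lower over all genes. Of 34 in the hypoxia and glycolysis list, 9 rose (26.5%) and 4 fell (11.8%). The members that rose are glycolytic enzymes with 1 exception, EGLN3, an oxygen sensor (0.77). LDHA, lactate dehydrogenase, went from 10.42, 10.60 and 10.30 to 12.23, 12.20 and 11.91 (difference 1.67, SE 0.12, adjusted p = 0.00182), and PGAM1 rose by 1.53 (adjusted p = 0.0021). The members that fell included PFKFB3, which makes an activator of glycolysis (-1.47, adjusted p = 0.00456), and the lipid droplet protein HILPDA (-1.40, adjusted p = 0.00784). Oxidative phosphorylation had 5 rises of 52 (9.62%). They were led by cytochrome c, CYCS (2.16, adjusted p = 0.00259), and ATP5MC1, a subunit of the ATP synthase (1.23, adjusted p = 0.00213), with NDUFS6 and NDUFB6 of complex I at 0.91 and 0.71. PPAR targets had 3 rises (7.32%) and 5 falls (12.2%) among 41. PDK4, a kinase that slows entry of pyruvate into the mitochondrion, fell from 8.96, 9.09 and 10.08 to 5.20, 5.55 and 5.86 (difference -3.84, SE 0.33, adjusted p = 0.00213), close to the untreated mean of 5.49. AQP3, a water and glycerol channel, EHHADH, a peroxisomal enzyme, and the receptor PPARA fell by 1.82, 0.93 and 0.74.

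**Figure D3:**
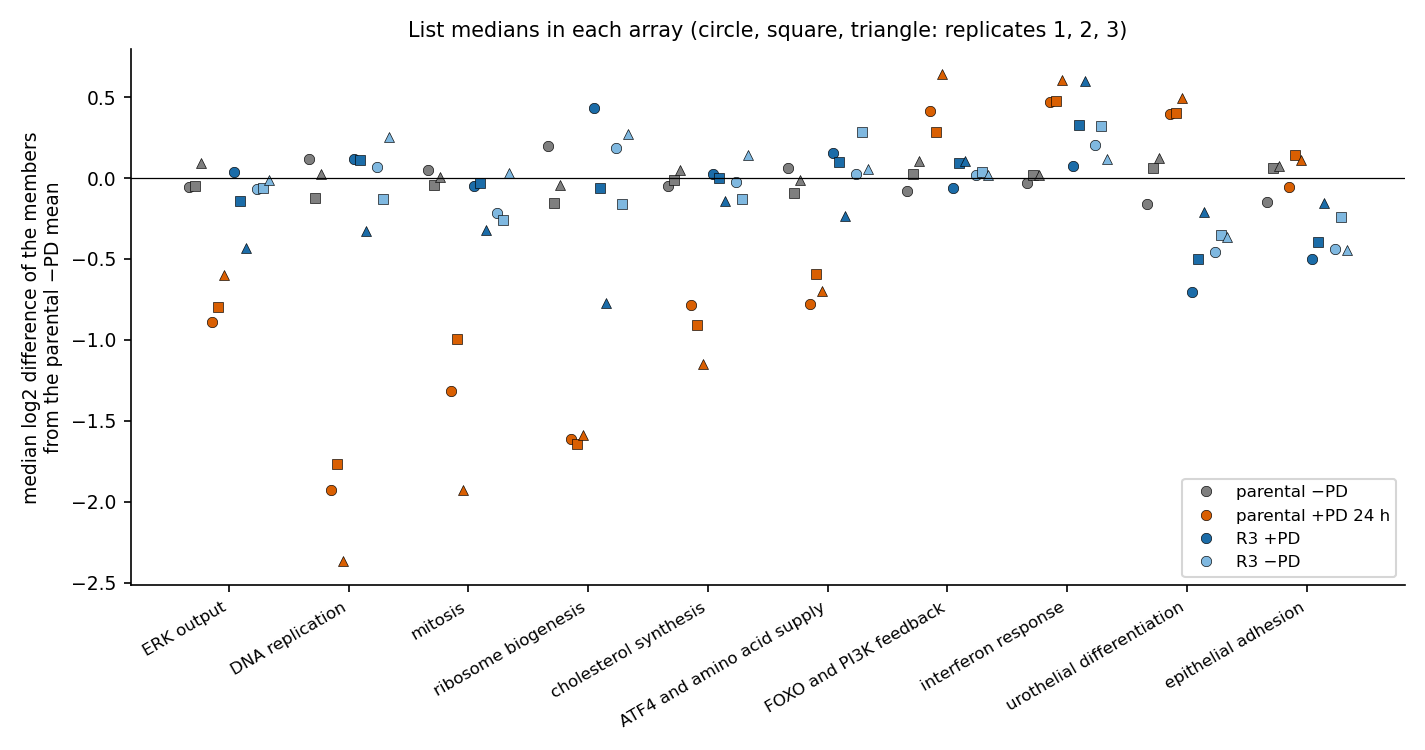
Median log2 difference of the members of 10 gene lists from the parental -PD mean (y axis) in each of 12 arrays, by list (x axis) and group (colour), with symbols for replicates. In DNA replication the acute arrays lie at -1.77 to -2.37 and the R3 +PD arrays at -0.33 to 0.12, whereas in urothelial differentiation the acute arrays lie at 0.39 to 0.49 and R3 +PD at -0.70 to -0.21.

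Urothelial differentiation genes were lower in R3 +PD. Of 38 measured, 12 fell (31.6%) and 1 rose (2.63%), against 5.76% and 5.35% over all genes, and the median was -0.83. Acute treatment set 17 of them higher and 3 lower than in untreated cells. R3 +PD had 2 lower and 1 higher than untreated cells. UPK1A, which encodes the membrane plaque protein uroplakin 1a, gave the largest fall among genes past the test, with symbols of unofficial style left out. It was 17.52, 17.25 and 17.59 in the acute arrays and 8.01, 9.33 and 13.02 in R3 +PD, so that the R3 arrays spread over 5 units and replicate 3 lay nearest the acute cells (difference -7.33, SE 1.20, adjusted p = 0.00806). Untreated cells stood at 11.94, 14.53 and 14.88, below every acute array, and R3 +PD replicate 3 lay within their range. The 3 subunits of the epithelial sodium channel fell together. SCNN1A was 12.14, 11.40 and 12.55 against 7.09, 7.89 and 8.74 (difference -4.12, SE 0.47, adjusted p = 0.0034), SCNN1B differed by -4.63 (SE 0.66, adjusted p = 0.00565) and SCNN1G by -3.32 (SE 0.45, adjusted p = 0.00506). PSCA, a surface antigen, fell by 3.12, SNX31 by 2.63, the transcription factors FOXQ1 and GRHL3 by 2.11 and 1.89, and KRT13, a keratin of differentiated urothelium, by 1.25. TFAP2A, a transcription factor, rose by 0.58. UPK2, another uroplakin, differed by -2.40 and did not pass (adjusted p = 0.0225). Without R3 +PD replicate 3, 20 members fell and 2 rose.

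Epithelial adhesion genes fell in 9 of 43 cases (20.9%, against 5.76% over all genes) and rose in none, at a median of -0.58. CEACAM6, an adhesion molecule, was 14.25, 14.41 and 14.47 in the acute arrays and 10.01, 10.08 and 10.29 in R3 +PD (difference -4.25, SE 0.11, adjusted p = 0.000171), with 16.08, 16.25 and 16.28 in untreated cells. The tight junction proteins CLDN7 and OCLN fell by 2.31 (adjusted p = 0.00471) and 1.77 (adjusted p = 0.00552), and SPINT1, an inhibitor of surface proteases, by 2.15 (adjusted p = 0.00368). CLDN7 was 9.11, 10.04 and 10.06 in untreated cells, from which R3 +PD differed by -0.28 (adjusted p = 0.694). Untreated OCLN was 10.33, 10.96 and 10.98, below every acute array. Against untreated cells, 5 of the 43 were lower in R3 +PD and none higher, where 1.06% of all genes were lower. CDH1, which encodes E-cadherin, overlapped between the groups at 13.97, 13.93 and 14.34 against 13.73, 13.95 and 14.06, and differed by -0.17 (adjusted p = 0.491). Mesenchymal and matrix genes had no rise among 68 and 3 falls (4.41%), against 5.35% higher and 5.76% lower over all genes. MMP13, a collagenase, fell from 9.63, 10.14 and 10.72 to 5.54, 6.40 and 6.92 (difference -3.88, SE 0.41, adjusted p = 0.00302), S100A4 by 1.66 (adjusted p = 0.00322) and the laminin chain LAMC1 by 0.79 (adjusted p = 0.00497). FN1, fibronectin, was 10.79, 11.47 and 10.75 against 12.66, 12.06 and 10.64, overlapping, with a difference of 0.78 (adjusted p = 0.354). CDH2, N-cadherin, was 6.68, 6.68 and 6.41 against 9.16, 8.35 and 6.30, so that replicate 3 alone stood at the acute level (difference 1.35, adjusted p = 0.223). Without R3 +PD replicate 3, 11 mesenchymal and matrix genes rose and 5 fell. SNAI2, the repressor slug, differed by 0.73 (adjusted p = 0.302) and VIM, vimentin, by -0.32 (adjusted p = 0.0492).

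The basal-squamous list had 1 rise, ITGA6, a laminin receptor subunit of basal cells (2.04, SE 0.27, adjusted p = 0.00466), and 1 fall, the desmosomal cadherin DSG1 (-0.60, adjusted p = 0.00368), among 21. That is 4.76% each way, near the 5.35% and 5.76% over all genes. DSG1 lay at 4.92, 4.87 and 4.96 in the acute arrays and 4.24, 4.35 and 4.36 in R3 +PD. These signals are near or below the array medians, so its fall and its interaction may be background. YAP/TAZ targets had a median of 0.48 with no rise and 2 falls among 22 (9.09%, against 5.76% over all genes). The falls were PTPN14 (-0.96, adjusted p = 0.00331) and ARHGEF17 (-0.49, adjusted p = 0.00704). Untreated cells stood at 8.31, 8.43 and 8.45 for PTPN14 and at 5.66, 5.79 and 5.82 for ARHGEF17, below every R3 +PD array. Against untreated cells, 2 of the 22 were higher in R3 +PD and none lower. The median of that list moved with single arrays, from 0.24 to 0.73. Relative to the untreated mean it stood at 0.95, 0.42 and 0.08 in the 3 R3 +PD arrays and at -0.03, 0.36 and 0.08 in the acute arrays, so that R3 +PD replicate 3 lay within the acute range.

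Of 52 secreted cytokines and proteases, 4 rose (7.69%) and 1 fell (1.92%), against 5.35% and 5.76% over all genes. IL1A, the cytokine interleukin 1 alpha, was 6.05, 5.75 and 6.27 in the acute arrays and 12.40, 10.40 and 9.67 in R3 +PD (difference 4.80, SE 0.67, adjusted p = 0.00527). IL1B, interleukin 1 beta, rose from 7.90, 8.05 and 8.20 to 11.88, 10.60 and 10.11 (difference 2.81, SE 0.43, adjusted p = 0.00672), and IL1RN, the antagonist of their shared receptor, fell by 0.71 (adjusted p = 0.00952). KLK6, a secreted serine protease, was 9.63, 10.62 and 8.63 against 14.27, 14.49 and 13.03 (difference 4.30, SE 0.59, adjusted p = 0.00511), and CSF1, a macrophage growth factor, rose by 0.74 (adjusted p = 0.00519). Interferon response genes had 2 rises (2.78%) and 5 falls (6.94%) among 72, near the background shares. GBP4, a guanylate-binding protein, fell from 11.09, 10.85 and 11.94 to 7.13, 7.97 and 9.12 (difference -3.22, SE 0.53, adjusted p = 0.00833), and IFIT2, an antiviral protein, from 9.03, 9.27 and 9.32 to 6.91, 7.12 and 6.41 (difference -2.39, SE 0.19, adjusted p = 0.00207). OAS1 fell by 1.91 (adjusted p = 0.00898) and IFI30, a lysosomal reductase, rose by 1.53 (adjusted p = 0.0066). Without R3 +PD replicate 3, 16 interferon response genes fell and 3 rose.

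In the BCL2 family, 2 of 18 genes fell (11.1%, against 5.76% over all genes), both encoding killer proteins of the BH3-only class. BMF was 7.88, 7.51 and 8.05 in the acute arrays and 5.87, 6.23 and 6.61 in R3 +PD (difference -1.58, SE 0.22, adjusted p = 0.00549), against 6.19 on average in untreated cells. BCL2L11, which encodes BIM, fell from 7.99, 7.99 and 8.09 to 7.15, 7.07 and 7.29 (difference -0.85, SE 0.08, adjusted p = 0.00263). Of 18 genes linked to drug tolerance, 2 rose (11.1%) and 3 fell (16.7%), against 5.35% and 5.76% over all genes. The histone modifiers EZH2 and KDM6A rose by 1.40 (adjusted p = 0.00564) and 0.98 (adjusted p = 0.00428). KDM5A, another histone demethylase, GPX4, which clears lipid peroxides, and CD24, a surface glycoprotein, fell by 0.97 (adjusted p = 0.00317), 0.98 (adjusted p = 0.00373) and 0.55 (adjusted p = 0.00709). PRDX6, a peroxidase, differed by 0.49 (adjusted p = 0.0643).

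The largest rises and falls were ranked among genes past the test, with symbols of unofficial style left out. The 12 largest rises were SLC7A11, SSX1, IL1A, PHLDA1, KLK6, CCND1, CDC6, SLC7A5, SRGN, CTPS1, DTL and MCM10. SSX1, a cancer-testis antigen that is silent in most adult tissue, was 5.74, 5.83 and 5.92 in the acute arrays and 12.27, 12.20 and 11.64 in R3 +PD (difference 6.21, SE 0.18, adjusted p = 0.000202), and untreated cells stood at 6.52, 6.05 and 6.08. SRGN, the proteoglycan serglycin, rose from 8.18, 8.20 and 7.71 to 12.89, 12.67 and 10.88 (difference 4.12, SE 0.53, adjusted p = 0.0044). CTPS1, which makes the nucleotide CTP, rose from 6.45, 6.68 and 6.12 to 11.37, 10.71 and 9.49 (difference 4.11, SE 0.46, adjusted p = 0.00332). Beside UPK1A, SCNN1B and CEACAM6, the 12 largest falls took in CLEC12A, POF1B, BPIFB1, CYP3A5, BTBD16, SLC14A1, VSIG2, MMP12 and SULT2A1. BTBD16 was 10.02, 9.89 and 9.71 in the acute arrays and 5.15, 5.50 and 5.56 in R3 +PD (difference -4.47, SE 0.14, adjusted p = 0.000243), and SLC14A1, a urea transporter, was 9.08, 9.76 and 9.74 against 5.06, 5.11 and 5.27 (difference -4.38, SE 0.20, adjusted p = 0.000753). In both genes the R3 arrays stood near the array medians. POF1B, an actin-binding protein of epithelial junctions, fell from 13.08, 12.85 and 13.16 to 7.20, 7.78 and 9.20 (difference -4.97, SE 0.48, adjusted p = 0.00259). The differences were -5.06 (SE 0.80, adjusted p = 0.00733) for CLEC12A, a lectin receptor of myeloid cells, and -4.94 (SE 0.69, adjusted p = 0.00549) for the secreted protein BPIFB1. They were -4.60 (SE 0.39, adjusted p = 0.00213) for the drug-metabolising enzyme CYP3A5, -4.25 (SE 0.67, adjusted p = 0.00732) for the sulphotransferase SULT2A1 and -4.29 (SE 0.45, adjusted p = 0.00298) for VSIG2. MMP12, a macrophage elastase, went from 8.16, 8.78 and 9.49 to 4.18, 4.72 and 4.70 (difference -4.28, SE 0.34, adjusted p = 0.00206). Its R3 +PD signals lay below the array medians, so this difference and its interaction are set against a signal that may be background.

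The same 2 lines were also compared without drug, R3 -PD against untreated parental cells, with no array in common with the comparison in drug. There, 395 genes were higher (1.76%) and 321 lower (1.43%). Across all 22411 genes the 2 sets of differences had a Pearson r of 0.309 and a Spearman rho of 0.234, a description across genes, which are not independent. In both comparisons 225 genes passed, 118 higher in both, 83 lower in both and 24 in opposite directions. The 201 in the same direction were 8.08% of the genes called in drug and 28.1% of those called out of drug. The largest of them by the smaller of their differences were BTBD16 (-4.47 in drug and -4.55 out of drug), KLK6 (4.30 and 4.42), CEACAM6 (-4.25 and -4.40) and KRT4, a keratin (-4.04 and -4.54), and their interaction tests gave adjusted p from 0.582 to 0.941. KLK6 was 9.26, 8.30 and 8.63 in untreated parental cells and 13.57, 12.24 and 13.64 in R3 -PD. LCP1, an actin-bundling protein of blood cells, was also higher in both (3.61 and 2.89). SSX1 was higher in both and by more in drug (6.21 and 3.16, interaction 3.04, adjusted p = 0.000339).

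In other genes the difference between the lines was not the same in drug as out of drug. In drug, R3 was in long-term culture and parental cells had 24 h, so drug and length of exposure cannot be told apart here. The interaction, the difference in drug minus that out of drug over 12 arrays, passed the test in 942 genes upward (4.20%) and 899 downward (4.01%). The 10 largest were SULT2A1 (-5.34), PHLDA1 (5.09), MMP12 (-5.03), SLC7A11 (4.38), DTL (4.34), SLC39A2 (-4.29), MUC15 (-4.26), TP53INP1 (-4.19), MCM10 (4.07) and CCND1 (4.07). Without drug PHLDA1 was 12.63, 12.52 and 12.55 in parental cells and 12.17, 12.26 and 12.31 in R3, a difference of -0.32 (adjusted p = 0.0346) where that in drug was 4.77. CDC6 differed by 0.30 without drug (adjusted p = 0.358) and by 4.28 in drug. SLC39A2, a zinc transporter, MUC15, a membrane mucin, and TP53INP1, a stress protein, rose on acute treatment by 4.16, 5.01 and 4.61, and R3 +PD differed from the acute arrays by -3.88, -3.69 and -3.70, MUC15 without passing that test (adjusted p = 0.0105). In DNA replication the interaction passed upward in 54 of 62 genes, in mitosis in 36 of 76, in ERK output in 13 of 35 with 2 downward, and in cholesterol synthesis in 12 of 26 with 2 downward. In epithelial adhesion it passed in 1 gene upward and 3 downward of 43. FGFR3 had an interaction of -1.89 (adjusted p = 0.00638), with differences of -3.45 in drug and -1.56 out of drug (adjusted p = 0.0103 for the latter). R3 +PD and R3 -PD compared with each other gave no call by limma, with 1764 genes at an unadjusted p under 0.05, and with 7 higher and 3 lower at an adjusted p under 0.05.

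**Figure D4:**
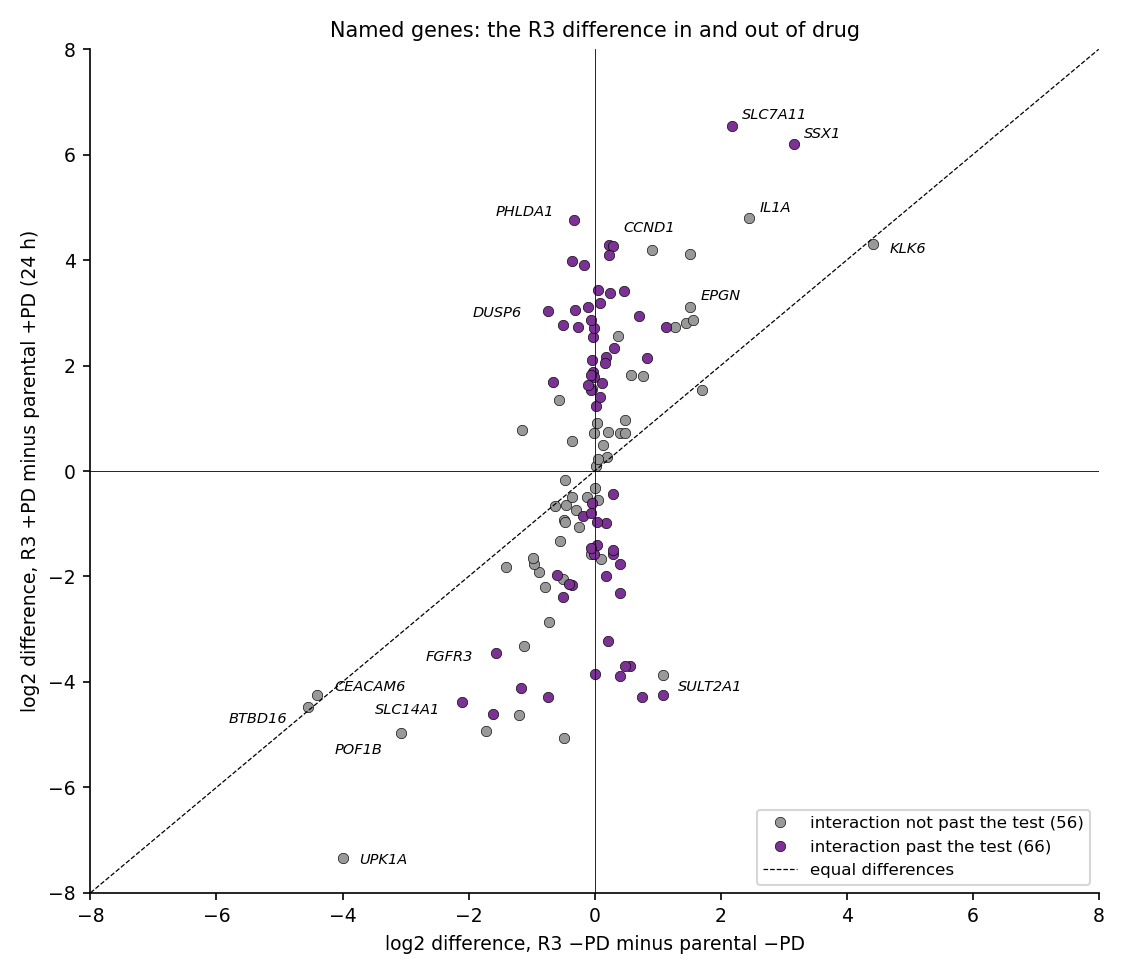
Log2 difference between R3 and parental cells in drug (y axis) against that out of drug (x axis) for the 122 named genes, purple where the interaction passed the test (66 genes) and grey where it did not (56), with a dashed line of equal differences. BTBD16, CEACAM6 and KLK6 lie near the line, while PHLDA1, CCND1 and DUSP6 lie within 1 unit of 0 on the x axis and at 3.04 to 4.77 on the y axis.

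RT112 R1 and R2 in drug were set directly against R3 in drug, since all 3 have the same acute reference. R3 had 490 genes higher (2.19%) and 580 lower (2.59%) than R1, and 229 higher (1.02%) and 476 lower (2.12%) than R2. Of the 122 named genes, 12 passed against R1 and 12 against R2. DUSP6 was 5.60, 6.01 and 5.26 in R1 and 5.38, 5.78 and 5.43 in R2, around the acute level, and R3 was higher than R1 by 3.33 (adjusted p = 0.00527) and than R2 by 3.42 (adjusted p = 0.00325). PHLDA1 was higher in R3 than in R2 by 4.41 (adjusted p = 0.00274) and than in R1 by 3.79, which did not pass (adjusted p = 0.0108). KLK6 exceeded R1 by 6.02 (adjusted p = 0.00216). SSX1, at 6.28, 6.42 and 6.54 in R1 and 11.93, 11.06 and 10.74 in R2, was higher in R3 than in R1 by 5.62 (adjusted p = 0.000371) and differed from R2 by 0.79 (adjusted p = 0.173). CEACAM6 was lower than the acute arrays in all 3 derivatives and least so in R3, which exceeded R1 by 4.19 (adjusted p = 0.00027) and R2 by 3.38 (adjusted p = 0.000732). FGFR3 differed between R3 and R1 by -0.10 (adjusted p = 0.812) and between R3 and R2 by 0.03 (adjusted p = 0.957), the 3 derivatives lying between 7.05 and 7.92.

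Among genes lower in R3, RRAS was below R1 by 1.40 (adjusted p = 0.00411) and R2 by 1.85 (adjusted p = 0.00398), GPX4 by 1.67 (adjusted p = 0.00248) and 1.69 (adjusted p = 0.00244), and CD24 by 0.99 (adjusted p = 0.00178) and 0.93 (adjusted p = 0.00509). FN1 was 15.76, 15.16 and 15.80 in R1 and 15.09, 15.26 and 15.06 in R2, above all R3 arrays, and the difference passed against R1 (-3.79, adjusted p = 0.00966) and not against R2 (-3.35, adjusted p = 0.0102). UPK1A was 18.29, 18.75 and 17.65 in R1 and 18.10, 18.08 and 16.83 in R2, above all R3 arrays by means of 8.11 and 7.55, neither of which passed (adjusted p = 0.0127 and 0.0149). Of the DNA replication genes, none passed against R1 or R2, although the list median was 1.60 above R1 and 0.98 above R2. R1 replicate 3 stood apart in that list, at -0.28 from the untreated mean where R1 replicates 1 and 2 were at -2.22 and -2.40. The R2 arrays stood at -1.22, -1.42 and -0.46. In the interferon response, 13 of 72 genes were lower in R3 than in R2, against 2.12% over all genes, and none higher. The median difference was -0.81.

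**Figure D5:**
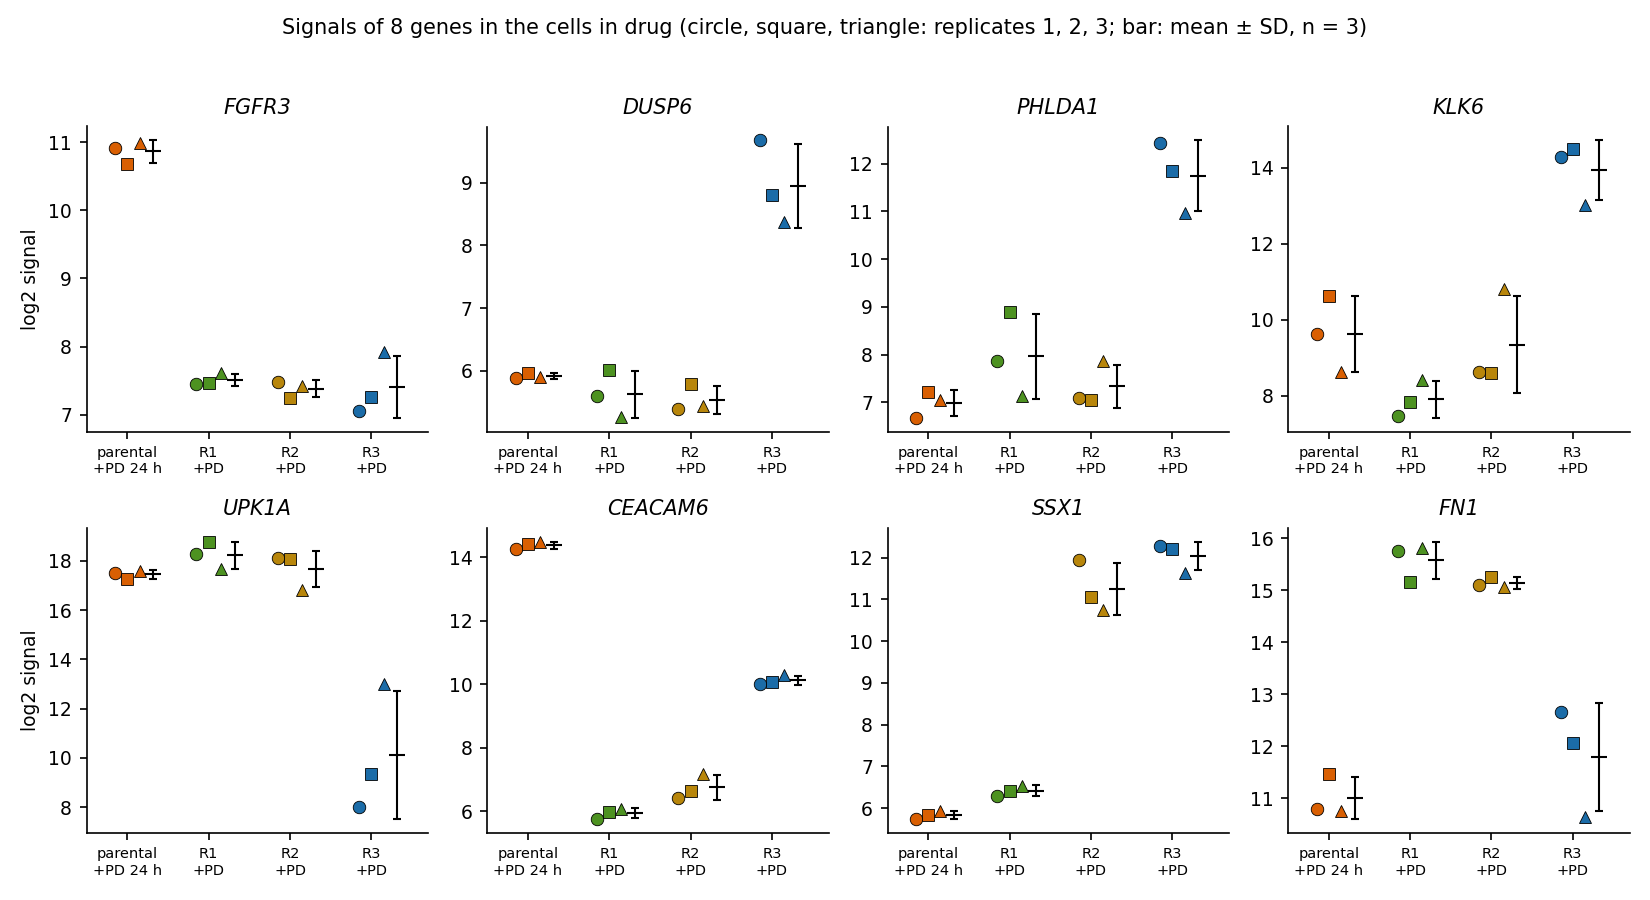
Log2 signal (y axis) of 8 genes in each array of parental +PD (24 h), R1 +PD, R2 +PD and R3 +PD (x axis), with symbols for replicates 1 to 3 and the mean ± SD (n = 3). For DUSP6 and PHLDA1 the R3 arrays lie above all others, for UPK1A and FN1 they lie below those of R1 and R2, and FGFR3 lies between 7.05 and 7.92 in all 3 derivatives.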

How the data were processed

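RNA of RT112 cells was measured on Affymetrix HTA 2.0 arrays. The authors deposited log2 signals made with RMA (background correction, quantile normalisation between arrays, 1 summarised value per probe set). The submitters' processing notes name Affymetrix Expression Console, while the study's methods used that program for quality checks and apt-probeset-summarize for normalisation, and which of them made the deposited values is not settled here. Array number, not read depth, limits their precision. Probe sets were named through the platform annotation. Of 67528 transcript clusters, 23781 had 1 gene symbol, 1543 several and 42204 none, and where a symbol had several clusters (528), the one with the highest mean signal was kept, giving 22411 genes. Genes outside these are not analysed here. Groups came from the sample labels. Each pair of groups was fitted with limma (version 3.58.1, R version 4.3.3). P-values were adjusted over all genes by Benjamini-Hochberg, with 0.01 as threshold, and the interaction was fitted over 12 arrays. Standard errors are those of limma. No published fold changes or p-values were used.

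The comparison and the 28 gene lists (1025 of 1111 members measured) were chosen with earlier results of these data known. Named genes were those the study discusses, up to 4 called members of each list with the largest differences, the 12 largest rises and 12 largest falls, and the 10 largest interactions. Rises, falls and interactions were ranked among genes past their test. Symbols of unofficial style (such as LOC, LINC, open reading frame, antisense and read-through names) were left out of these rankings. Other genes are listed members whose values were seen first. Genes discussed by the study were picked on these samples and are not independent evidence. Alternatives covered the samples fitted, how probe sets were chosen, a filter on low signals (30th percentile), the prior, the normalisation, a replicate block, the methods' t-test, thresholds and leaving out each array. In data simulated for R3 +PD against parental +PD (22411 genes), limma called 0 genes when none was changed. It called 100, 166 and 198 of 200 genes changed by 1, 2 and 4 log2 units. At most 200 genes were changed there, against 2489 past the test in the arrays. Whether these rates hold for the arrays, where R3 +PD replicate 3 stood apart, was not tested.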

Additional observations from a re-analysis of the deposited data

Results flagged for a closer look

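The difference between R3 and parental cells was not the same in drug as out of drug for 942 genes upward and 899 downward, by the interaction term in limma at an adjusted p under 0.01, and 66 of the 122 named genes were among them. Values below are that interaction on the log2 scale, the R3 minus parental difference in drug less the one out of drug. Since parental cells had 24 h of drug and R3 long-term culture, length of exposure enters it too. Upward it was PHLDA1 (5.09), SLC7A11 (4.38), DTL (4.34), MCM10 (4.07), CCND1 (4.07), CDC6 (3.98), CTPS1 (3.88), DUSP6 (3.78), MYBL2 (3.39), FGFBP1 (3.37), NOP2 (3.27), MYC (3.22), POLA2 (3.14), DDX21 (3.11), SSX1 (3.04), ERRFI1 (2.99), GINS2 (2.95), SLC7A1 (2.93), PUS7 (2.74), DHCR7 (2.57), FASN (2.34), MTHFD2 (2.23), SQLE (2.16), MSMO1 (2.02), CYCS (1.98), ACAT2 (1.92), RBL1 (1.88), ITGA6 (1.88), E2F3 (1.80), SCD (1.74), CENPU (1.59), PGAM1 (1.58), LDHA (1.56), ELOVL6 (1.32), EZH2 (1.32) and ATP5MC1 (1.22). Downward it was SULT2A1 (-5.34), MMP12 (-5.03), SLC39A2 (-4.29), MUC15 (-4.26), TP53INP1 (-4.19), PDK4 (-3.84), VSIG2 (-3.54), GBP4 (-3.43), CYP3A5 (-2.98), SCNN1A (-2.96), CLDN7 (-2.72), SLC14A1 (-2.28), PIK3IP1 (-2.18), FOXO4 (-2.16), FGFR3 (-1.89), IFIT2 (-1.89), FLRT2 (-1.87), RASSF5 (-1.81), RRAS (-1.80), SPINT1 (-1.75), BMF (-1.57), HILPDA (-1.43), PFKFB3 (-1.40), TRIB2 (-1.37), GPX4 (-1.16), PTPN14 (-1.01), LAMC1 (-0.74), FGFR2 (-0.71), BCL2L11 (-0.66) and DSG1 (-0.56). These named genes were in part chosen for large differences in drug, which also enter the interaction, so their number is not read further. Signals of DSG1 in both groups in drug, and of MMP12 in R3 +PD, lay near or below the array medians and may be background.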

How the results depend on the processing

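The counts of genes that differed between R3 +PD and parental +PD, 1199 higher and 1290 lower, moved by more than 1.5 times under several alternatives. One fit over all RT112 arrays gave 2224 and 2301, an adjusted p under 0.05 gave 2762 and 2949, a log2 difference of at least 1 gave 712 and 627, and the methods' t-test gave 2 and 4 after adjustment. Leaving out 1 array gave 1 to 2262 higher and 3 to 2011 lower genes, lowest without parental +PD replicate 1 or R3 +PD replicate 2 and highest without R3 +PD replicate 3. With the replicate block the counts were 735 and 667, and 78 of the 104 named calls remained. Deviations of same-numbered arrays correlated at -0.148, 0.047 and 0.233, and those of different-numbered arrays at -0.288 to 0.295. With 3 arrays in each group, these values cannot decide whether the numbers pair the samples. The interaction, 942 upward and 899 downward, gave 622 and 478 at a log2 difference of at least 1, 2141 and 2272 at an adjusted p under 0.05, and 393 to 1911 upward and 348 to 1702 downward without 1 array, lowest without R3 +PD replicate 2 and highest without R3 +PD replicate 3. With the replicate block it gave 758 and 956. The cause of these shifts was not tested, beyond the fewer arrays that some fits hold. No named gene that passed reversed direction under any alternative run. Of the 104, 104 kept their call with the mean of a gene's probe sets, 101 with quantile normalisation repeated, 102 with arrays centred, 100 with a trended prior and 81 when every transcript cluster was tested. Of 476 list medians recomputed, 471 moved by less than the spread between arrays and 5 moved further.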
